A study of Mus musculus with 16 samples.

Results

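p53 target genes and the Gadd45 family were followed in naive T cells of GABPα-sufficient (WT) and GABPα-deficient (KO) mice, before and after stimulation. The set was given as a list of 10 genes, namely Trp53, Phlda3, Ccng1, Mdm2, Bax, Gadd45a, Gadd45b, Gadd45g, Trp53inp1 and Perp, and its members were the probe sets that the platform's gene table pairs with 1 of these symbols alone. Of the 10 genes 8 had such a probe set, 14 probe sets in all, among 12393 genes tested on 22690 probe sets. Trp53 and Bax were not analysed here. WT mice were Gabpaf/f, and KO mice carried in addition a Cre recombinase under the CD4 promoter (CD4CreGabpaf/f), which is active from the double-positive thymocyte stage, so that both T-cell lineages lose GABPα and all groups share the floxed allele. Naive CD25-CD62LhiCD44lo cells of the CD4+ or the CD8+ lineage were sorted from spleen and lymph nodes and either lysed at once (0 h) or cultured for 18 h with α-CD3/28 and IL-2, a stimulus through the T-cell receptor and a growth cytokine. The 8 groups held 2 arrays each, called biological replicates by the labels. The age of the mice and the number of animals behind each array were not given in the sources used here.

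p53 is a transcription factor that is held at a low level by the ubiquitin ligase Mdm2 and is released by DNA damage and other stress. Its target genes arrest the cell cycle, repair DNA, alter metabolism or start cell death, and Mdm2, being a target itself, closes a feedback loop. The Gadd45 proteins are small acidic stress sensors that bind the kinase Map3k4 upstream of p38 and JNK, the replication clamp PCNA and the mitotic kinase Cdk1. In T cells Gadd45b and Gadd45g are known for their induction by cytokines and antigen and for their part in interferon-γ production, while Gadd45a is the classical p53 target of the family.

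Values are log2 probe set levels as deposited, so that a difference of 1 is a doubling. A gene with several probe sets is represented by its brightest, and levels are not compared between genes. A difference passed the test when its limma p, adjusted over all 12393 genes, was under 0.05 and its fold was above 1.5. Differences are given ± SE from the fit over all 16 arrays. Since the arrays measure RNA of whole populations, fewer cells of a type and less RNA per cell cannot be told apart.

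Among the arrays, 1 stood apart. The 3' control probe sets of actin and Gapdh exceeded their 5' partners by 3.76 in CD8 KO 18 h replicate 2, by 1.58 in CD4 WT 0 h replicate 1 and by 1.11 in CD8 KO 0 h replicate 2, against 0.46 to 0.85 in the other 13 arrays. The replicates of CD8 KO 18 h correlated at 0.970 and those of the other 7 groups at 0.987 to 0.994. Gabpa, the targeted gene, was not lower in the arrays labelled KO (9.09 to 9.79) than in those labelled WT (8.74 to 9.34). Its second probe set read 7.62 to 9.20 in KO and 6.29 to 7.69 in WT arrays. Gabpa even passed the test as higher in KO CD4 cells at 18 h (0.72 ± 0.20, adjusted p = 0.0442), though in no other KO comparison. Which exons its probe sets read and which the floxed allele loses was not given in the sources used here, so this is no check of the labels, and WT and KO name the arrays as labelled throughout. The lineage labels were borne out by Cd8a, at 10.89 to 12.01 in CD8 and 4.42 to 7.56 in CD4 arrays, and by Cd4, at 6.34 to 7.26 in CD4 and 4.78 to 5.59 in CD8 arrays. Cd3e lay between 8.48 and 9.98. Of the markers of other cells, Cd79a of B cells, Lyz2 of myeloid cells and Ncr1 of NK cells lay no higher than 4.26, 5.75 and 3.61 in any array, but other genes of the same lists read higher. Ighm, the immunoglobulin heavy chain, reached 11.78, Cd79b 7.57, Cst3 of the myeloid list 9.0 and Klrd1, which NK cells share with CD8+ T cells, 11.77. The summed level of the B cell list was 11.66 to 11.91 in resting arrays, and that of the NK list was 11.61 to 11.90 in resting CD8 arrays.

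The promoters of the 4 members that differed between KO and WT and have an entry in RefSeq's promoter table are shown because these genes were called in different cells, Gadd45g in resting and the others in stimulated ones. The calls do not make the differences particular to 1 state. Gadd45b differed by 1.19 in stimulated CD4 cells, where it was called, and by 1.23 in resting ones, where it was not. Each promoter is the 250 bases before the annotated start, read along the gene's strand in GRCm38.p6. Capitals mark matches on either strand to CCGGAAG (an Ets core of the kind that GABP binds), to the consensus half-site of p53, to CCAAT and to TATAAA, and no match overlapped another. Phlda3 lies on the plus strand at chr1:135765835-135766084, Ccng1 on the minus strand at chr11:40755287-40755536, with the inner end inside the annotated gene, Gadd45b on the plus strand at chr10:80929841-80930090 and Gadd45g on the plus strand at chr13:51846425-51846674.
Phlda3: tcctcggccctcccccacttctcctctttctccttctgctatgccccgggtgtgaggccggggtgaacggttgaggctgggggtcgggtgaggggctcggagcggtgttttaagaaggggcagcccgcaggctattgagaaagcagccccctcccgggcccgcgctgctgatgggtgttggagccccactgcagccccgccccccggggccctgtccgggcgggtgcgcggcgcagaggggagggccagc
Ccng1: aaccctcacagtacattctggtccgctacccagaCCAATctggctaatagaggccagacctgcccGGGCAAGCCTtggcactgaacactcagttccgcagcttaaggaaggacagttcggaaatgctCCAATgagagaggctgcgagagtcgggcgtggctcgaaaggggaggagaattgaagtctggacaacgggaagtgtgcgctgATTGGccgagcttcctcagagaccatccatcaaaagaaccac
Gadd45b: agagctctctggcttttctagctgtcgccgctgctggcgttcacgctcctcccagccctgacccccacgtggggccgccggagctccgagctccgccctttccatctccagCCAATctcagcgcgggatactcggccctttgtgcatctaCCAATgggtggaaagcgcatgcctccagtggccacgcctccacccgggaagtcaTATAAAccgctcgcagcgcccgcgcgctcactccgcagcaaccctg
Gadd45g: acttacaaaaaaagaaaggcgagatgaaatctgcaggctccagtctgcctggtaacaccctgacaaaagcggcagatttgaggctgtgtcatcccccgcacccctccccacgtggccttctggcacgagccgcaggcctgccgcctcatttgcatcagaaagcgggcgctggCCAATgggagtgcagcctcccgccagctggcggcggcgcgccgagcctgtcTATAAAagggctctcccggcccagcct

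The Phlda3 window held none of the 4 motifs and had a GC content of 71.2%, against a median of 52.4% over 32851 promoters. The Ccng1 window held a p53 half-site at -185 to -176 and 3 CCAAT boxes. Gadd45b and Gadd45g resembled each other in carrying CCAAT upstream of a TATA box, which began at -46 in Gadd45b and at -27 in Gadd45g. Over 6 members with a promoter in the table, 3 had a p53 half-site (Ccng1, Gadd45a and Mdm2), 1 had CCGGAAG (Mdm2, at -8 to -2), 5 had CCAAT (all but Phlda3) and 2 had TATAAA. Of all promoters 7.13% held the half-site, 6.91% held CCGGAAG, 33.8% held CCAAT and 12.4% held TATAAA in a window of the same length. These matches describe letters in the sequence and say nothing on binding.

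In resting cells Gadd45g was the member called between KO and WT, in both lineages. In CD4 cells its values were 5.56 and 5.63 in WT and 7.35 and 6.85 in KO. In CD8 cells they were 6.64 and 6.56 in WT and 8.07 and 8.42 in KO. The groups did not overlap in either lineage, and each KO array lay above every resting WT array. Gadd45g was 2.84-fold higher in KO CD4 cells (1.51 ± 0.28, adjusted p = 0.0200) and 3.13-fold higher in KO CD8 cells (1.64 ± 0.28, adjusted p = 0.0119). It was the 1 member of 8 called higher in each lineage, where 0.533% of all genes in CD4 and 1.13% in CD8 were called higher (1.27% and 1.63% in either direction). Both calls were lost, at adjusted p = 0.0623 and 0.0603, without the 3 arrays of high 3' to 5' difference, while the differences stayed at 1.48 and 1.47. The CD4 call was also lost without any 1 of the 4 arrays compared (1.26 to 1.76, adjusted p = 0.0736 to 0.239) and with the compared groups alone (adjusted p = 0.0588), and the CD8 call with any 1 of 3 arrays left out, namely replicates 1 and 2 of CD8 WT 0 h and replicate 2 of CD8 KO 0 h (adjusted p = 0.0891 to 0.128). Against a bound of 1.5-fold neither passed (adjusted p = 0.656 and 0.261).

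Gadd45b, its paralogue, had values of 6.46 and 6.63 in WT and 7.93 and 7.62 in KO resting CD4 cells. In resting CD8 cells the values were 6.18 and 6.45 in WT and 7.24 and 7.0 in KO. KO arrays lay above WT arrays in both lineages, yet the differences of 1.23 ± 0.31 (adjusted p = 0.0904) and 0.81 ± 0.31 (adjusted p = 0.320) did not pass. In CD4 cells Gadd45b did pass with array weights (adjusted p = 0.0179), and without the 3 arrays of high 3' to 5' difference its difference was 1.15. In both lineages the outcome of the test changed when either CD8 KO 18 h array, outside these comparisons, was left out. Gadd45a, the other paralogue, had a difference of -0.60 ± 0.34 in CD4 cells (adjusted p = 0.596) and of -0.14 ± 0.34 in CD8 cells (adjusted p = 0.938), and its WT and KO values overlapped in both.

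The p53 targets of the set did not pass the test at 0 h. Phlda3, which restrains Akt signalling by competing for membrane lipids, differed by 0.33 ± 0.23 in CD4 and 0.53 ± 0.23 in CD8 cells (adjusted p = 0.685 and 0.432). By brightest probe set, Ccng1, the cyclin G1 gene, Mdm2 and Trp53inp1, a nuclear and autophagy protein induced by p53, differed by -0.16 to 0.34. A further Ccng1 probe set had means of 7.92 in WT and 8.46 in KO CD4 cells, and 7.28 and 7.97 in CD8, without overlap. The remaining Ccng1 probe set had means of 8.08 and 8.97 in CD4 and of 7.98 and 8.07 in CD8 cells. Neither passed when every probe set was tested. Perp, which encodes a membrane protein of cell death and cell junctions, read 2.45 to 3.02 in the 8 resting arrays and lay among the dimmest 33.3% of genes. Over the 8 members the median difference was 0.12 in CD4 and 0.16 in CD8 cells, against -0.06 and 0.02 over all genes. Among 10 proliferation markers 1 was higher in KO at 0 h in CD4 cells and 8 were in CD8 cells, where their summed level was 11.64 to 11.88 in KO and 9.90 to 10.43 in WT. In CD4 cells the summed level was 10.24 to 10.50 in KO and 9.62 to 9.69 in WT. Of 12 memory and effector markers 2 were lower in KO in resting CD4 cells (summed level 8.74 to 9.45 in KO and 9.48 to 10.12 in WT) and none differed by the test in resting CD8 cells (10.59 to 10.91 and 10.63 to 10.68). Other lists shifted at 0 h too. In resting CD8 cells the summed level of the myeloid list was 7.75 to 8.63 in KO and 8.65 to 9.10 in WT. That of the naive T-cell list was 13.42 to 13.44 in KO and 13.64 to 13.69 in WT CD8 cells. In resting CD4 cells the B cell list summed to 11.66 to 11.74 in KO and 11.82 to 11.91 in WT. The part of all these markers in the Gadd45g difference was not tested.

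**Figure D1:**
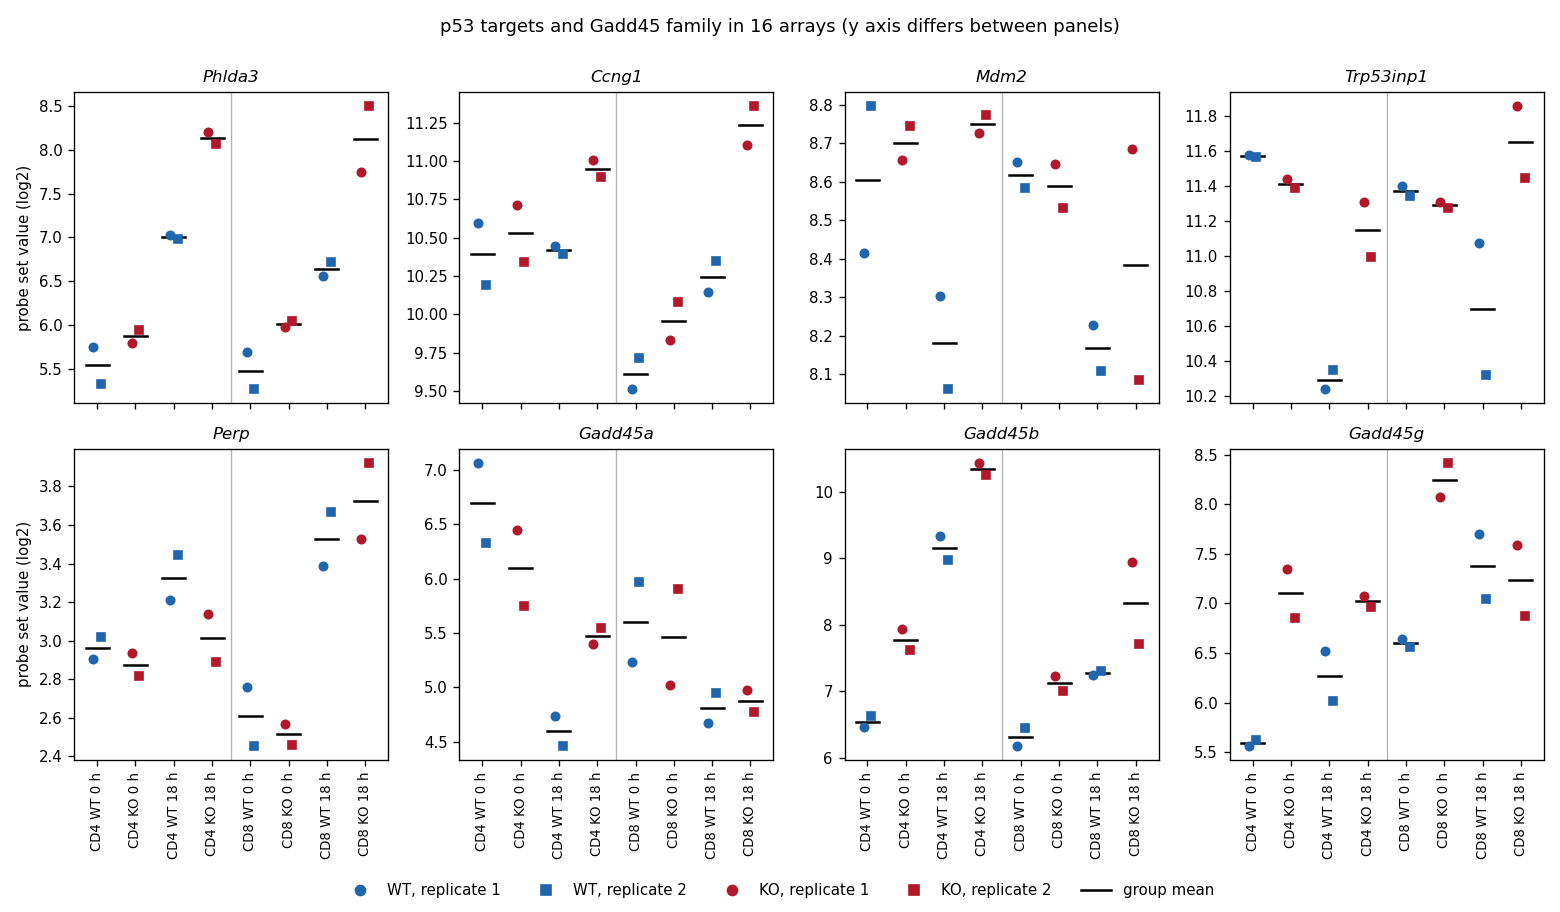
Log2 probe set values (y axis) of the 8 measured genes in the 16 arrays, by group (x axis), with WT in blue, KO in red, circles and squares for replicates 1 and 2 and a bar for the mean of 2 arrays. Gadd45g reads 6.85 to 8.42 in resting KO arrays and 5.56 to 6.64 in resting WT arrays, and Phlda3 reads 7.75 to 8.50 in stimulated KO arrays and 6.56 to 7.03 in stimulated WT arrays.

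After 18 h of stimulation Phlda3 and Trp53inp1 were higher in KO cells of both lineages, Gadd45b was higher in KO CD4 cells and Ccng1 in KO CD8 cells. Thus 3 of 8 members were called higher in CD4 cells, where 2.72% of all genes were (6.86% in either direction), and 3 of 8 in CD8 cells, where 1.59% were (2.75% in either direction). No member was called lower. The median difference over the members was 0.80 in CD4 and 0.59 in CD8 cells, against 0.02 and 0.07 over all genes, and 7 of 8 members lay above 0 in each lineage.

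Phlda3 had values of 7.03 and 6.98 in WT and 8.20 and 8.06 in KO stimulated CD4 cells. In stimulated CD8 cells it read 6.56 and 6.72 in WT and 7.75 and 8.50 in KO. Every stimulated KO array exceeded every stimulated WT array of either lineage. Phlda3 was 2.18-fold higher in KO CD4 cells (1.13 ± 0.23, adjusted p = 0.0110) and 2.80-fold higher in KO CD8 cells (1.48 ± 0.23, adjusted p = 0.00599). The CD8 call was kept whichever array was left out (1.11 to 1.86) but not with the compared groups alone (adjusted p = 0.334) or against a bound of 1.5-fold (adjusted p = 0.211), whereas the CD4 call was lost without any 1 of the 4 arrays compared (1.06 to 1.19).

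Trp53inp1 had values of 10.24 and 10.35 in WT and 11.30 and 10.99 in KO stimulated CD4 cells. In stimulated CD8 cells it read 11.07 and 10.31 in WT and 11.86 and 11.44 in KO. The groups did not overlap, although the WT CD8 arrays were far apart. The differences were 0.86 ± 0.22 (1.81-fold, adjusted p = 0.0344) and 0.96 ± 0.22 (1.94-fold, adjusted p = 0.0407). These were weak calls, kept in 8 and 2 of 16 fits that each left out 1 array, and neither was made when every probe set was tested (adjusted p = 0.0526 and 0.0597). The second Trp53inp1 probe set was dim, between 4.27 and 5.44, and differed by 0.38 and 0.32.

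Ccng1 had values of 10.14 and 10.35 in WT and 11.10 and 11.36 in KO stimulated CD8 cells, 1.98-fold higher in KO (0.99 ± 0.19, adjusted p = 0.0182). In stimulated CD4 cells the values were 10.45 and 10.39 in WT and 11.00 and 10.90 in KO, a difference of 0.53 ± 0.19 that did not pass (adjusted p = 0.131). In neither lineage did WT and KO overlap. The CD8 call was lost without the 3 arrays of high 3' to 5' difference (0.86, adjusted p = 0.0710), and without CD8 KO 18 h replicate 2 or either CD8 WT 18 h array.

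The 3 Ccng1 probe sets did not all read alike. Tested over all probe sets, the one with WT values of 8.83 and 8.74 in stimulated CD4 cells was higher in KO in both lineages, by 0.89 in CD4 (adjusted p = 0.0237) and 0.96 in CD8 cells (adjusted p = 0.0349). The remaining one, at 9.03 and 8.58 in the same WT arrays, differed by 0.74 in CD4 and by -0.11 in CD8 cells, where its KO replicates read 9.24 and 7.95. The lower of these values came from the array of highest 3' to 5' difference. The mean of the 3 probe sets passed in CD4 (0.72, adjusted p = 0.0291) but not in CD8 cells (0.61, adjusted p = 0.103).

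Gadd45b had values of 9.34 and 8.98 in WT and 10.44 and 10.26 in KO stimulated CD4 cells, 2.28-fold higher in KO (1.19 ± 0.31, adjusted p = 0.0336). In stimulated CD8 cells the values were 7.24 and 7.30 in WT and 8.94 and 7.70 in KO, with a difference of 1.05 ± 0.31 that did not pass (adjusted p = 0.0949). The KO arrays lay above the WT arrays in both lineages, but the CD8 KO replicates stood apart by more than any other pair for this gene. The lower was again the array of highest 3' to 5' difference, and without it the CD8 difference was 1.67 and passed, the lone KO array being taken to vary like the other groups. The CD4 call was lost without any 1 of the 4 arrays compared, with differences of 1.01 to 1.37, and was not made by this probe set when every probe set was tested (adjusted p = 0.0544).

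The next brightest Gadd45b probe set read 6.30 and 6.49 in WT and 8.20 and 9.05 in KO stimulated CD8 cells. Its difference was 2.23 in CD8 (adjusted p = 0.0116 over all probe sets) and 1.43 in CD4 cells (adjusted p = 0.0370). At 0 h it differed by 1.04 and 0.91, with no overlap between WT and KO. The probe sets of Gadd45b thus ordered the CD8 KO replicates in opposite ways while both placed them above WT.

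**Figure D2:**
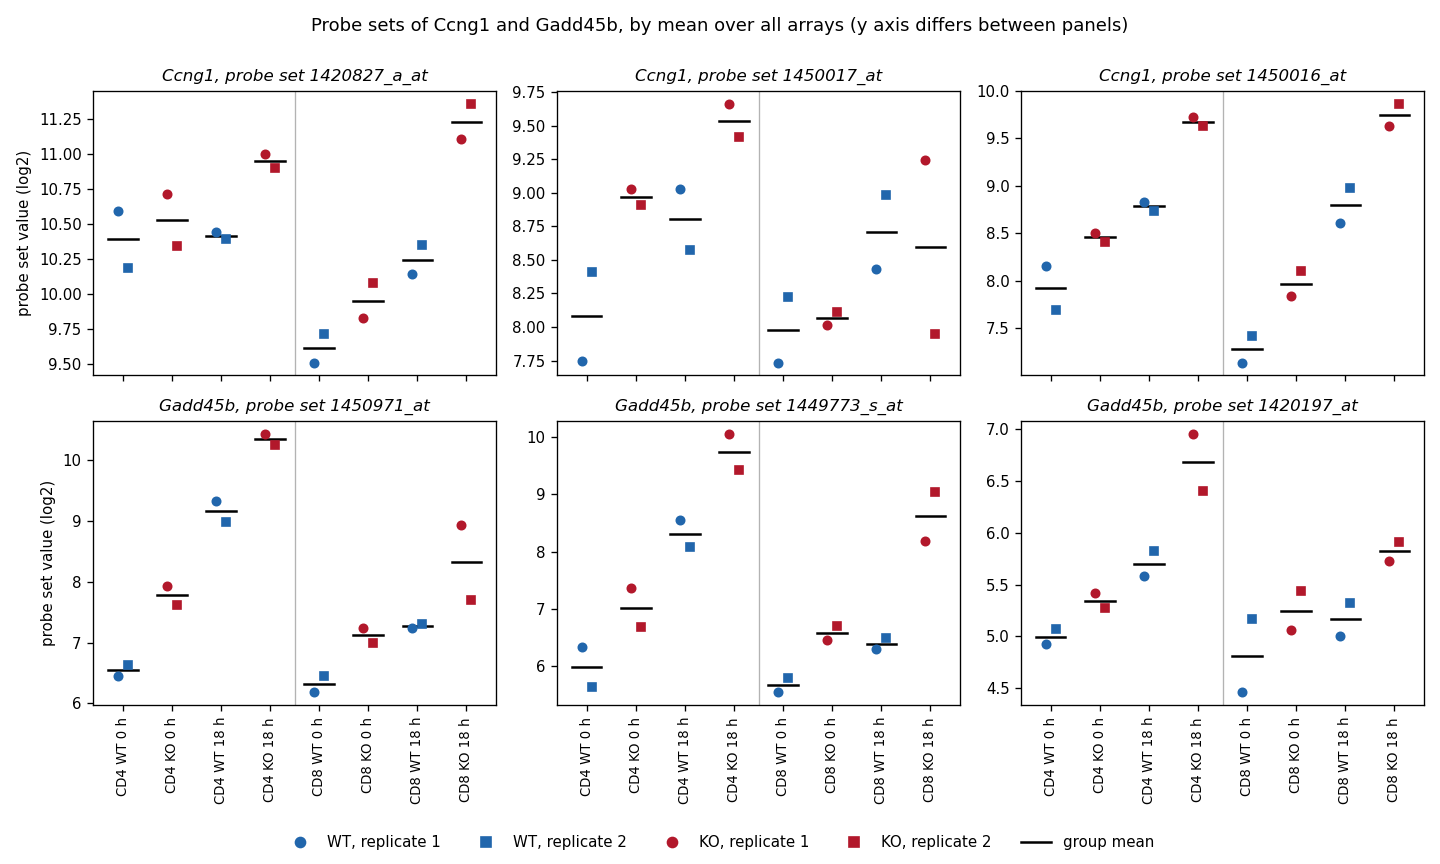
Log2 values (y axis) of the 3 probe sets of Ccng1 (top) and of Gadd45b (bottom) in the 8 groups (x axis), ordered by their mean over all arrays, with WT in blue, KO in red and a bar for the mean of 2 arrays. In CD8 KO 18 h the replicates of Gadd45b read 8.94 and 7.70 by the brightest probe set and 8.20 and 9.05 by the next, all above the 2 CD8 WT 18 h arrays of the same probe set.

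Mdm2 read 8.30 and 8.06 in WT and 8.73 and 8.77 in KO stimulated CD4 cells, without overlap, and its difference of 0.57 ± 0.20 did not pass (adjusted p = 0.122). In stimulated CD8 cells the WT values of 8.23 and 8.11 overlapped the KO values of 8.69 and 8.08. The second Mdm2 probe set read 6.63 and 7.03 in WT and 7.07 and 4.83 in KO stimulated CD8 cells, the lowest value being from the array of highest 3' to 5' difference. Its stimulated CD4 values were 7.25 and 6.51 in WT and 7.61 and 7.49 in KO. At 0 h its means were 5.97 in WT and 7.15 in KO CD4 cells, and 7.10 in WT and 6.58 in KO CD8 cells. Gadd45a differed by 0.88 ± 0.34 in CD4 (adjusted p = 0.182) and 0.06 ± 0.34 in CD8 cells. Gadd45g, the member called in resting cells, differed by 0.75 ± 0.28 in CD4 (adjusted p = 0.157) and -0.14 ± 0.28 in CD8 cells (adjusted p = 0.877). Perp differed by -0.31 and 0.20 and did not pass.

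Proliferation markers moved in the other direction from these members in CD4 cells. At 18 h 9 of 10 were lower in KO CD4 cells, with a summed level of 10.33 to 10.46 in KO and 12.07 to 12.36 in WT. In KO CD8 cells 1 was higher and 2 were lower (11.77 to 12.03 in KO and 12.14 to 12.94 in WT). The summed level of the myeloid list was also lower in KO at 18 h, at 7.64 to 8.05 against 8.70 to 8.82 in CD4 and 7.65 to 8.32 against 8.75 to 8.93 in CD8 cells, with 1 of 12 genes called lower in CD4 cells and none called in CD8 cells. That of the B cell list was lower in KO CD4 cells (9.30 to 9.72 against 10.59 to 10.79, 1 of 9 called). In KO CD8 cells that of the NK list was higher (10.40 to 11.01 against a lowest WT value of 9.04, without overlap, none of 6 called) and that of the memory and effector list was lower (11.51 to 11.65 against 12.43 to 12.47, with 1 of 12 called higher). The part of all these markers in the differences of the members was not tested. Among 9 activation markers 1 was higher in KO CD4 cells and none differed in KO CD8 cells, and their summed level was 13.56 to 13.67 in KO and 13.33 to 13.51 in WT CD4 cells, and 12.45 to 12.66 in KO and 12.40 to 12.90 in WT CD8 cells.

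**Figure D3:**
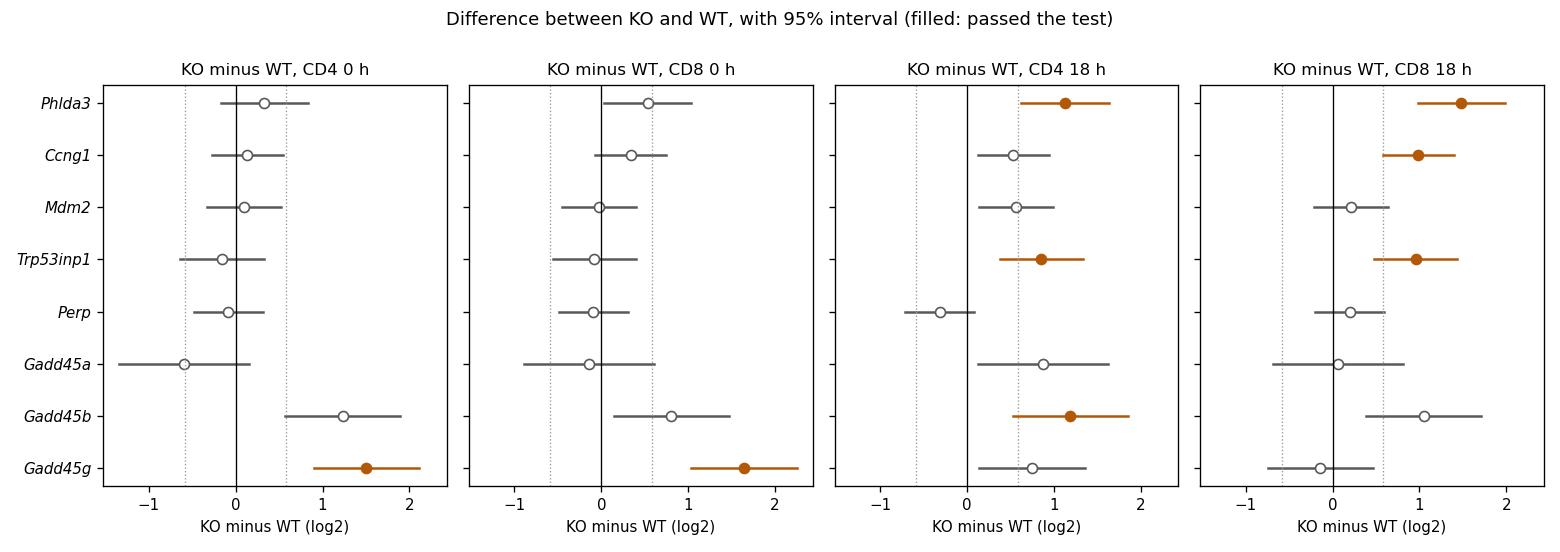
Difference between KO and WT (x axis, log2) of the 8 members in each lineage and time, with 95% intervals from limma, filled symbols for differences that passed the test and dotted lines at 1.5-fold. At 0 h the filled symbol is Gadd45g in both lineages, and at 18 h Phlda3 and Trp53inp1 are filled in both.

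The comparison of 18 h with 0 h asked how the members responded to stimulation. In WT CD4 cells Phlda3 and Gadd45b rose while Gadd45a and Trp53inp1 fell, 4 of 8 members against 26.2% of all genes called. In KO CD4 cells Phlda3 and Gadd45b rose and no member fell (2 of 8, against 24.2%). In WT CD8 cells Phlda3, Ccng1 and Gadd45b rose and Perp was called higher at dim levels (4 of 8, against 15.2%). In KO CD8 cells the same 4 genes were called higher and Gadd45g fell (5 of 8, against 7.54%).

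Phlda3 rose by 1.47 ± 0.23 in WT CD4, 2.26 ± 0.23 in KO CD4, 1.16 ± 0.23 in WT CD8 and 2.11 ± 0.23 in KO CD8 cells. All 8 stimulated arrays, at 6.56 to 8.50, lay above all 8 resting arrays, at 5.27 to 6.05. Gadd45b rose by 2.61 ± 0.31 in WT CD4 and 2.57 ± 0.31 in KO CD4 cells, and by 0.96 ± 0.31 in WT CD8 (adjusted p = 0.0493) and 1.21 ± 0.31 in KO CD8 cells (adjusted p = 0.0300). Both CD4 rises of Gadd45b passed in all 16 fits that left out 1 array, and the WT CD8 rise in 2 of 16.

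Gadd45a moved the other way. In WT CD4 cells it fell from 7.07 and 6.33 at 0 h to 4.73 and 4.46 at 18 h, a difference of -2.10 ± 0.34 (adjusted p = 0.000512) that passed in all 16 fits with 1 array left out. In KO CD4 cells it read 6.45 and 5.75 at 0 h and 5.4 and 5.55 at 18 h, without overlap and without passing the test (-0.62 ± 0.34). In CD8 cells its differences were -0.79 in WT and -0.59 in KO and did not pass. Hence the sign of the change separated Gadd45a from Gadd45b in WT CD4 cells.

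Trp53inp1 fell in WT CD4 cells by 1.28 ± 0.22 on the log2 scale (adjusted p = 0.000754), from 11.57 in both arrays at 0 h to 10.24 and 10.35 at 18 h. The mean of its bright and its dim probe set differed by -0.39 there and did not pass (adjusted p = 0.281). In KO CD4 cells, at 11.44 and 11.39 before and 11.30 and 10.99 after stimulation, the difference of -0.26 ± 0.22 did not pass. In WT CD8 cells it was -0.68 ± 0.22 (adjusted p = 0.0558). There it passed with the replicate number as a block within each lineage (adjusted p = 0.0208) and with a block by sort (adjusted p = 0.0298). In KO CD8 cells it was 0.36 ± 0.22.

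Gadd45g read 6.64 and 6.56 at 0 h and 7.70 and 7.05 at 18 h in WT CD8 cells, a difference of 0.77 that did not pass, though it did with the block within each lineage (adjusted p = 0.0410). In KO CD8 cells it fell by 1.01 ± 0.28 on the log2 scale (adjusted p = 0.0463), from 8.07 and 8.42 to 7.59 and 6.87. This fall was lost in 9 of 16 fits with 1 array left out, and it was 0.48 in size without the 3 arrays of high 3' to 5' difference. Ccng1 rose by 0.63 ± 0.19 in WT CD8 (adjusted p = 0.0371) and by 1.28 ± 0.19 in KO CD8 cells (adjusted p = 0.00143). The WT rise did not pass with the arrays centred on their medians (adjusted p = 0.0833) or against the 1.5-fold bound. Under quantile normalization it was 0.55, under the fold needed. In CD4 cells the brightest Ccng1 probe set differed by 0.03 and 0.42, whereas the probe set called in KO of both lineages rose in all 4 comparisons.

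Perp read 2.76 and 2.45 at 0 h and 3.39 and 3.67 at 18 h in WT CD8 cells (0.92 ± 0.18, adjusted p = 0.00450), and 2.57 and 2.46 and then 3.53 and 3.92 in KO CD8 cells (1.21 ± 0.18, adjusted p = 0.00170). Without the 3 arrays of high 3' to 5' difference the KO rise did not pass (0.96, adjusted p = 0.0720). These levels are near the bottom of the array range, which began at 1.62, and the probe set was not shown to read above background. Mdm2 did not pass in any of the 4 comparisons, with differences of -0.45 to 0.05.

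**Figure D4:**
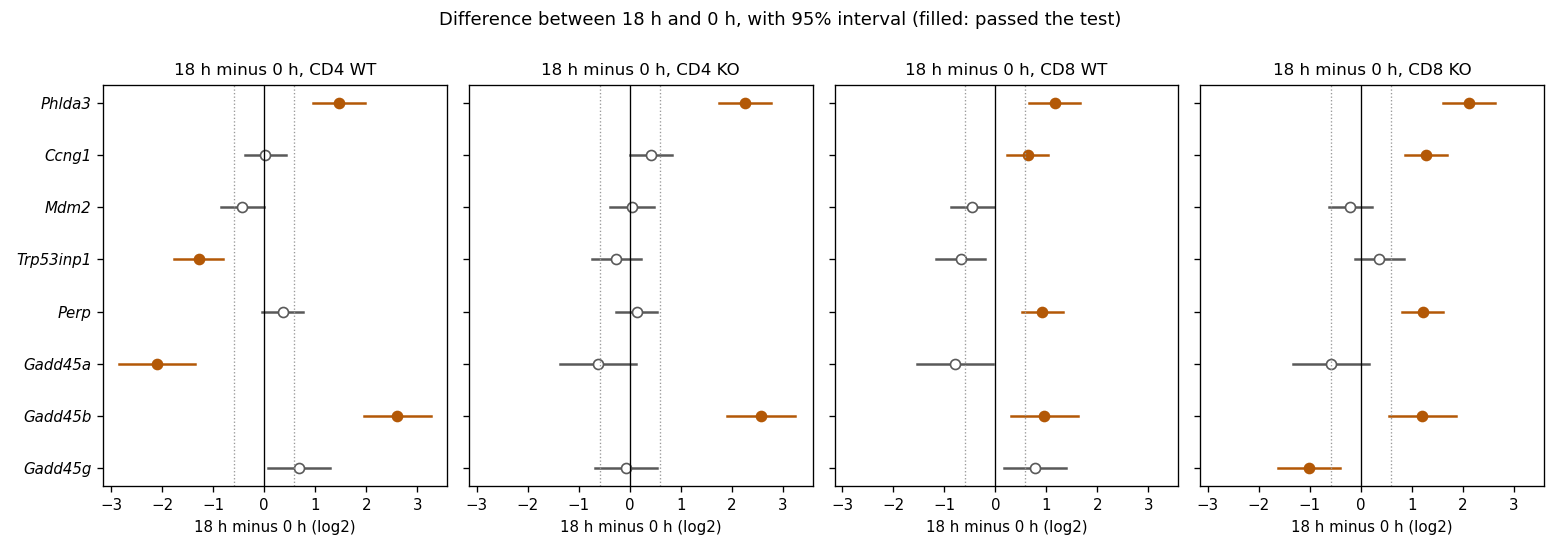
Difference between 18 h and 0 h (x axis, log2) of the 8 members in each lineage and genotype, with 95% intervals from limma, filled symbols for differences that passed the test and dotted lines at 1.5-fold. Phlda3 and Gadd45b are filled above 0 in all 4 panels, and Gadd45a reaches -2.10 in WT CD4 cells.

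Whether the response itself differed between genotypes was tested as the difference of the 2 responses, which shares its arrays with the comparisons above. No member passed in either lineage, where 1.41% of all genes in CD4 and 0.266% in CD8 did. At an unadjusted p under 0.05 there were 3 of 8 members in CD4 and 4 in CD8 cells, against 11.3% and 9.10% of all genes. The smallest adjusted p was that of Gadd45g in CD8 cells, at -1.78 ± 0.40 (adjusted p = 0.122). Trp53inp1 (1.02 ± 0.31, adjusted p = 0.188) and Gadd45a (1.48 ± 0.49, adjusted p = 0.229) followed in CD4 cells. So the resting calls of Gadd45g and the stimulated calls of Phlda3 and Trp53inp1 were not shown to be particular to their time point.

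Nor was any KO difference shown to depend on the lineage. No member passed in the comparison of the CD8 with the CD4 difference, where 0% of all genes did at 0 h and 0.0403% at 18 h. At an unadjusted p under 0.05 there were 0 of 8 members at 0 h and 1 at 18 h, against 3.86% and 6.83% of all genes. The lineages themselves differed in Gadd45b, which was lower in CD8 than in CD4 cells at 18 h, by -1.88 in WT (adjusted p = 0.00473, against 3.28% of all genes called) and by -2.02 in KO (adjusted p = 0.000874, against 13.7%). Perp, at dim levels, was called higher in KO CD8 than in KO CD4 cells at 18 h (0.71, adjusted p = 0.0208), a call lost without the 3 arrays of high 3' to 5' difference (0.51, adjusted p = 0.180) or without CD8 KO 18 h replicate 2 or CD4 KO 18 h replicate 2 (adjusted p = 0.156 and 0.187). At 0 h no member passed between lineages, against 1.28% of all genes in WT and 2.31% in KO, though Gadd45g read higher in CD8 than in CD4 arrays without overlap, by 1.0 in WT (adjusted p = 0.162) and 1.14 in KO (adjusted p = 0.0583). The KO difference passed under quantile normalization (adjusted p = 0.0394) and with array weights (adjusted p = 0.0188).

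Other genes of the pathway were read from a list of 40 further p53 targets, of which 34 were measured. At 0 h 1 of 34 (2.94%, against 1.27% and 1.63% of all genes) was called lower in each lineage, Ercc5, a nuclease of nucleotide excision repair, by -0.77 in CD4 (adjusted p = 0.0364) and -0.75 in CD8 cells (adjusted p = 0.0349). In neither lineage was any target called at 0 h with the arrays centred on their medians or with every probe set tested. Nor was any called there against the 1.5-fold bound or with the compared groups alone. After stimulation KO CD4 cells had 5 targets called higher and 2 called lower (20.6%, against 6.86% of all genes), and KO CD8 cells had 2 called higher and none lower (5.88%, against 2.75%). The median difference of the list was 0.38 and 0.34 at 18 h, against 0.02 and 0.07 over all genes, and 0.02 and 0.04 at 0 h, against -0.06 and 0.02.

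Cdkn1a, the gene of the cell-cycle inhibitor p21, was higher in KO at 18 h in both lineages. Its values were 7.39 and 6.88 in WT and 8.98 and 9.20 in KO stimulated CD4 cells, and 6.52 and 6.87 in WT and 8.47 and 8.95 in KO stimulated CD8 cells. It was 3.89-fold higher in KO CD4 (1.96 ± 0.26, adjusted p = 0.000771) and 4.04-fold higher in KO CD8 cells (2.01 ± 0.26, adjusted p = 0.00198), while at 0 h it differed by 0.25 and -0.07. Of these targets it was the 1 whose response to stimulation differed between genotypes in both lineages, by 1.71 in CD4 (adjusted p = 0.0456) and 2.08 in CD8 cells (adjusted p = 0.0444). In that test none of these targets passed in CD8 cells with the arrays centred on their medians or under quantile normalization. The same held there with the mean of a gene's probe sets, every probe set tested, array weights or the compared groups alone. Against the 1.5-fold bound none passed in either lineage. The CD8 test includes replicate 2 of CD8 KO 0 h and of CD8 KO 18 h, both of high 3' to 5' difference.

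Of the remaining targets, Fas, the death receptor, was higher in KO CD4 cells at 18 h by 1.13 ± 0.27 (adjusted p = 0.0228), and in CD8 cells it differed by 0.89 without passing. Plk3, a stress-responsive kinase, was higher by 0.72, Cd82, a tetraspanin, by 1.44 and Susd6 by 0.93, all in KO CD4 cells. Sesn2, a sestrin that restrains mTORC1, was higher by 0.59 in KO CD8 cells. The targets that fell in KO CD4 cells were Ddb2, which recognises ultraviolet damage (-1.01, adjusted p = 0.00397), and Gpx1, the antioxidant glutathione peroxidase. Gpx1 read 11.25 and 11.05 in WT and 9.37 and 8.76 in KO stimulated CD4 cells, a difference of -2.09 ± 0.25 (adjusted p = 0.000301). Its response in CD4 cells differed between genotypes (-2.09, adjusted p = 0.0135). Upon stimulation of WT cells, Sesn1 fell by 2.07 and 1.01 and Rrm2b, a ribonucleotide reductase subunit, fell by 1.48 and 0.91 on the log2 scale in CD4 and CD8 cells, while Aen, an apoptotic nuclease, rose by 1.32 and 0.81.

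Upstream of p53, 16 of 24 listed regulators and cofactors were measured. Chek1, the checkpoint kinase of replication stress, was higher in KO CD8 cells at 0 h by 2.17 ± 0.33 (adjusted p = 0.00587). Chek2 (-1.54) and Prkdc (-0.68), kinases of the response to DNA breaks, were lower in KO CD4 cells at 18 h. No other KO difference of this list passed. The calls made up 6.25% of the list in CD8 cells at 0 h and 12.5% in CD4 cells at 18 h. Of all genes 1.63% and 6.86% were called there. Among 13 measured partners of Gadd45 proteins, Cdk1 was higher in KO CD8 cells at 0 h (2.06) and lower in KO CD4 cells at 18 h (-2.30), and Map2k3, a kinase upstream of p38, was higher in KO CD4 cells at 18 h (1.18). Cdkn1a stands in this list too. In KO against WT 7.69% of the partners were called in CD8 cells at 0 h, against 1.63% of all genes. At 18 h 23.1% were called in CD4 and 7.69% in CD8 cells, against 6.86% and 2.75% of all genes. Of 9 paralogues of members, Ccng2 was the 1 to pass, higher in KO CD8 cells at 18 h by 1.26 (adjusted p = 0.0367). That is 11.1% of this list, against 2.75% of all genes. Mdm4, the relative of Mdm2 that binds p53, fell upon stimulation in all 4 comparisons.

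In stimulated against resting WT cells, 26.2% of all genes were called in CD4 and 15.2% in CD8 cells. Of the Gadd45 partners 6 rose and 2 fell in CD4 cells (61.5% called), and 6 rose in CD8 cells (46.2%). Among them Pcna, the replication clamp, rose by 1.35 and 1.37 and Apex1, an endonuclease of base excision repair, by 1.54 and 1.01 in CD4 and CD8 cells. Mapk14, the p38α kinase that lies downstream of Gadd45 proteins, fell by 0.74 on the log2 scale in CD4 cells and differed by -0.49, under the fold needed, in CD8 cells. Of the regulators 3 rose and 4 fell in CD4 cells (43.8%), and 1 rose and 2 fell in CD8 cells (18.8%, near the share of all genes). Crebbp, an acetyltransferase that p53 recruits, fell by 0.90 and 0.73, and Trp53rkb rose in CD4 cells by 0.80. Of the paralogues 2 fell in each lineage (22.2%, near the share of all genes), while Phlda1 (0.76 and 0.98) and Trp73 (-0.32 and -0.19) did not pass.

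Likeness over the 16 arrays was measured by Pearson's r for each member called between KO and WT against all genes, as a description. The arrays share their groups, so that any genes moved by stimulation correlate. The gene most like Phlda3 was Cdkn1a (r = 0.973), followed by Stt3a (0.964) and Slc19a2 (0.960). Ccng1 was most like Qser1 (0.909), Sft2d2 (0.902) and Tlcd2 (0.901), and Gadd45b most like M6pr (0.954), Krr1 (0.953) and Ahctf1 (0.951). For Trp53inp1 these were Epc1 (0.932), Slc25a36 (0.918) and Clk1 (0.912), of which Epc1 and Clk1 were higher in KO at 18 h in both lineages. Gadd45g had no gene above 0.789 (As3mt), with Pcyox1 at 0.787 and Xrn2 at 0.786. Among the members themselves r was 0.80 for Phlda3 with Ccng1 and 0.79 for Phlda3 with Gadd45b, while Gadd45g did not exceed 0.30 in size with any other member.

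**Figure D5:**
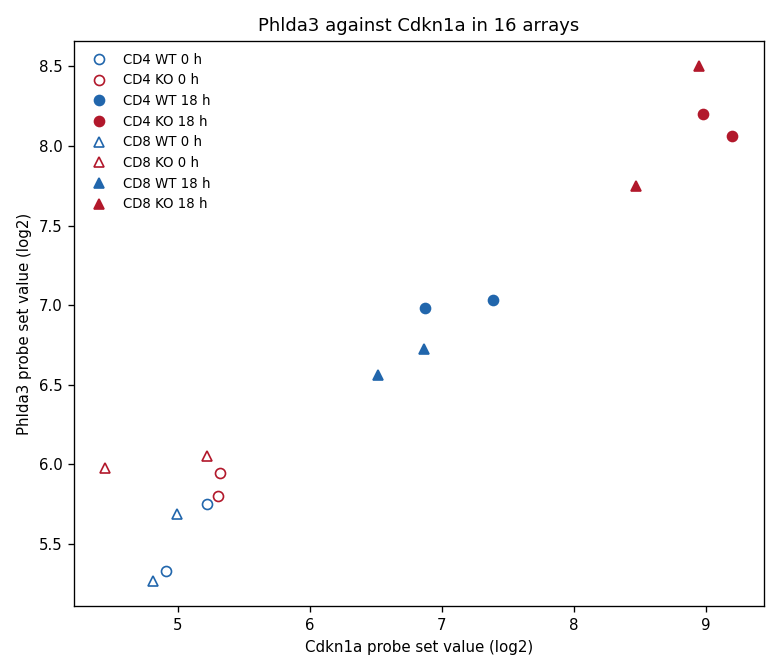
Log2 probe set values of Phlda3 (y axis) against Cdkn1a (x axis) in the 16 arrays, with CD4 as circles, CD8 as triangles, WT in blue, KO in red, open symbols for 0 h and filled ones for 18 h. The 4 stimulated KO arrays sit at 7.75 to 8.50 for Phlda3 and 8.47 to 9.20 for Cdkn1a, above the 4 stimulated WT arrays on both axes.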

How the data were processed

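RNA was amplified in 2 rounds, labelled with biotin and hybridized to Affymetrix mouse arrays. The authors deposited log2 values per probe set, made per the labels with the affy package, whose version and summary method are not given in the sources used here, and the labels also name limma. No counts exist behind these values, so the number of arrays limits the precision. Probe sets were named through the platform's gene table. Of 22690 probe sets 20380 name 1 gene, 691 several and 1619 none, and 20351 of those with 1 gene matched the RefSeq table (GRCm38.p6). A gene was represented by its probe set of highest mean over all arrays.

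The values were used as deposited. Group means were fitted to all 16 arrays with limma 3.58.1 in R 4.3.3 (lmFit and eBayes, 8 residual and 4.32 prior degrees of freedom), and p-values were adjusted over 12393 genes by Benjamini-Hochberg. Calls needed an adjusted p under 0.05 and a fold above 1.5. Probe sets were also tested singly. On simulated data the fit recovered 67% to 77% of changes of 1 and 95% to 99% of changes of 2 on the log2 scale, over the 4 comparisons of KO with WT. The simulated noise was independent between arrays, with 1 spread per gene. It held no outlying array and no deviations shared between groups, so these shares need not hold for the real arrays. The study's criteria can also be read as a test against a 1.5-fold bound, which was run as an alternative, as were other normalizations, probe set rules, array weights, replicate blocks, the compared groups alone and each array left out.

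The methods say that sorted cells were divided between 0 h and 18 h. Equal replicate numbers were taken to pair these 2 times within a lineage and genotype, which no label states. Deviations from the group means of such pairs correlated at 0.27 to 0.56. Those of the other pairs of equal number within a lineage, such as WT with KO, correlated at 0.18 to 0.45, and those of different lineage correlated at -0.60 to -0.12. The members, lists and comparisons were chosen with earlier results of these data known. All members were named, as were genes of each list called between KO and WT (up to 6) or with the smallest adjusted p on stimulation of WT cells (up to 3), and the 3 genes most like each member called between KO and WT. Ercc5, Susd6 and Sesn2 were named in addition, to complete the counts, after their values were seen.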

Additional observations from a re-analysis of the deposited data

How the results depend on the processing

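Each comparison's count of members called was recomputed under alternatives to the processing. Against the 1.5-fold bound the counts in KO against WT fell to 0 in both lineages at 0 h and to 0 in both at 18 h, where 20 and 26 (0 h, CD4 and CD8) and 159 and 31 (18 h) of all genes were called, and those of 18 h against 0 h to 0 in CD8 WT and 1 in CD8 KO, and of CD8 against CD4 at 18 h to 0 in WT and 1 in KO. With array weights, KO against WT gave 2 in CD4 0 h and 1 in CD8 18 h, the response of CD8 KO gave 3, and CD8 against CD4 gave 1 in WT 0 h, 2 in WT 18 h, 1 in KO 0 h and 1 in KO 18 h. Without the 3 arrays of high 3' to 5' difference, which leaves 3 groups with 1 array taken to vary like the others, KO against WT gave 0 in CD8 0 h, the response of CD8 KO gave 3, and CD8 against CD4 at 18 h gave 2 in WT and 1 in KO. With the compared groups alone KO against WT gave 0 in CD4 0 h and 0 in CD8 18 h, the response of CD8 KO gave 1 and CD8 against CD4 in KO 18 h gave 0. Quantile normalization gave 2 in WT 18 h and 1 in KO 0 h for CD8 against CD4, and leaving out the dimmest 33.3% of genes gave 2 in WT 18 h and 1 in KO 18 h. Of 162 such counts 135 stayed within 1.5 times the reported one, counts of 0 that stayed 0 among them. A count can stay while its members change. With the mean of a gene's probe sets, KO against WT in CD4 18 h stayed at 3, but Ccng1 took the place of Trp53inp1. Beyond the settings' own construction the cause of these changes was not tested.

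With 1 array left out in turn, the counts in KO against WT ranged at 0 h from 0 to 2 in either lineage, and at 18 h from 0 to 3 in CD4 and from 1 to 3 in CD8 cells. Those of the response ranged from 4 to 5 in CD4 WT, 2 to 2 in CD4 KO, 0 to 6 in CD8 WT and 3 to 5 in CD8 KO. The response difference gave 0 in CD4 and 0 to 2 in CD8 cells, the difference of KO effects 0 at both times, and CD8 against CD4 gave 0 in WT 0 h, 0 to 2 in WT 18 h, 0 to 1 in KO 0 h and 1 to 3 in KO 18 h. The replicate block within each lineage raised the response count of CD8 WT from 4 to 6 and the block by sort to 5. The block within each lineage changed no call of a member between KO and WT, and the block by sort was not run there, since a sort holds 1 genotype. Of 3328 values of single members 133 lost a call, 50 gained one, 94 uncalled ones changed sign and 0 called ones did. With 2 arrays a group, a p above the threshold does not show that a gene was unchanged.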
